A study of Mus musculus with 24 samples.

Results

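Costimulatory and checkpoint molecules are surface proteins through which antigen-presenting cells raise or restrain the activity of T cells. The 8 genes described here were *Cd80*, *Cd86*, *Cd274*, *Havcr2*, *Cd40*, *Tnfsf9*, *Cd69* and *Cd83*, taken by symbol from a list written for these data, and all 8 were found among the 24411 genes measured in cultured mouse astrocytes and microglia.

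The study asked how WT glia and glia that carry the *SOD1G93A* transgene, a model of familial amyotrophic lateral sclerosis, differ when quiescent and when activated, and it read polyadenylated RNA from purified cultures. The 21 libraries comprised 3 for each of 7 conditions; a further 3 samples, *SOD1G93A* microglia left quiescent, have no table and were not analysed here. WT microglia were left quiescent (PBS) or activated with lipopolysaccharide (LPS, 50 ng/mL), a bacterial cell wall component, and *SOD1G93A* microglia were activated with the same dose of LPS. Astrocytes of both genotypes were left quiescent (PBS) or activated with a mix of C1q at 400, TNFα at 30 and IL-1α at 3 ng/mL.

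The cells were primary and postnatal in all 7 conditions. Cortical astrocytes were immunopanned from pups in the first postnatal week, by removing cells that bound CD45, endothelial lectin or O4 and then keeping those that bound HepaCAM. Microglia came from whole brains of slightly older pups and were pulled down with magnetic beads against CD11b. Both were kept in serum-free media, which for microglia held TGF-β2, IL-34 and cholesterol. The *SOD1G93A* line had been bred into C57BL/6J. It carries a mutant human *SOD1* gene in all its cells under that gene's own promoter, so a difference between genotypes can come from glia of any kind that carry it. Strain, sex, number of pups per culture and length of treatment are not given in the labels. The labels number the samples of a condition but do not say whether they were separate cultures or animals, and sources beyond the labels and tables were not read for this, so a p-value measures the spread between these samples, which may be technical.

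CD80 and CD86 bind CD28 on T cells to help activate them, and CTLA-4 to restrain them, while PD-L1, the product of *Cd274*, binds PD-1 and restrains them. CD40 is the receptor through which helper T cells license antigen-presenting cells, and the 4-1BB ligand, from *Tnfsf9*, passes a signal back to T cells. CD69 and CD83 are widely used as markers of activated leukocytes and mature dendritic cells, and TIM-3, from *Havcr2*, is an inhibitory receptor of T cells that microglia also carry.

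Depth ran from 2016139 to 11570122 reads per library, with a median of 5098168. In 2 conditions one library stood apart. In replicate 3 of LPS-activated *SOD1G93A* microglia, 148 of 8333 genes (1.78%) lay under a 2-fold margin below both other libraries of the condition and 35 lay over a 2-fold margin above both. Replicate 1 of LPS-activated WT microglia had 87 of 8104 such low genes (1.07%) and 2 high ones, and each of the other 19 libraries had at most 13. This count was chosen after the data were seen. Log2 changes of the 8 genes in LPS-activated *SOD1G93A* microglia are therefore given with and without replicate 3, while mean levels, list medians and shares over all genes include it unless said otherwise. Those in LPS-activated WT microglia are also given without replicate 1.

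The cell types were checked against fixed marker lists. The 14 microglial markers summed to 12709, 13247 and 12460 RPM (reads scaled to a common library total) in quiescent WT microglia, where *Csf1r* led with 2553 to 2612 RPM. They summed to 4519.9, 4267 and 4277 RPM after LPS in WT cells, and to 4725, 4607 and 6324 RPM in *SOD1G93A* cells, so replicate 3 of the *SOD1G93A* cells had the highest sum of the activated microglia. Even there no microglial marker was at 0, although *Tmem119* averaged 397 RPM in quiescent and 13.8 RPM in LPS-activated WT microglia, and *P2ry12* averaged 73.9 and 4.46 RPM. Fewer cells of a type and less RNA per cell cannot be told apart in bulk libraries.

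Astrocyte cultures expressed the 11 astrocyte markers at summed levels of 4277 to 6353 RPM, led by *Slc1a3* in each library, against 140 to 235 RPM in microglia. They also held low levels of microglial transcripts. Relative to quiescent WT microglia, 13 of the 14 microglial markers stood at 1.41% (*Trem2*) to 5.42% (*P2ry12*) in quiescent WT astrocytes, and *Sall1* stood at 149%, with a median over the 14 of 2.11%. Among the 8 genes the same share was 1.84% for *Havcr2*, 4.35% for *Cd80*, 7.04% for *Cd83*, 7.15% for *Cd86*, 18.0% for *Tnfsf9*, 22.9% for *Cd274*, 39.4% for *Cd69* and 68.5% for *Cd40*. The shares of *Havcr2* and *Cd80* lay within the range of the 13 markers, those of *Cd83* and *Cd86* lay just above it, and those of *Tnfsf9*, *Cd274*, *Cd69* and *Cd40* lay far above it. The share of *Cd80* rested on 1 read in all in quiescent WT astrocytes and 19 in quiescent WT microglia, too few to place it. What part of the astrocyte values came from microglia in the cultures was not tested.

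Lymphocytes, the usual partners of these molecules, left almost no trace. The 14 T, B and NK cell markers summed to 1.98 to 7.52 RPM in each library, 9 to 13 of them were at 0, and *Cd3d*, *Cd3e* and *Cd3g* were at 0 in all 7 conditions. *Cd79b* or *Cd4* led this list in microglia and *Klrb1c* in astrocytes.

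**Figure D1:**
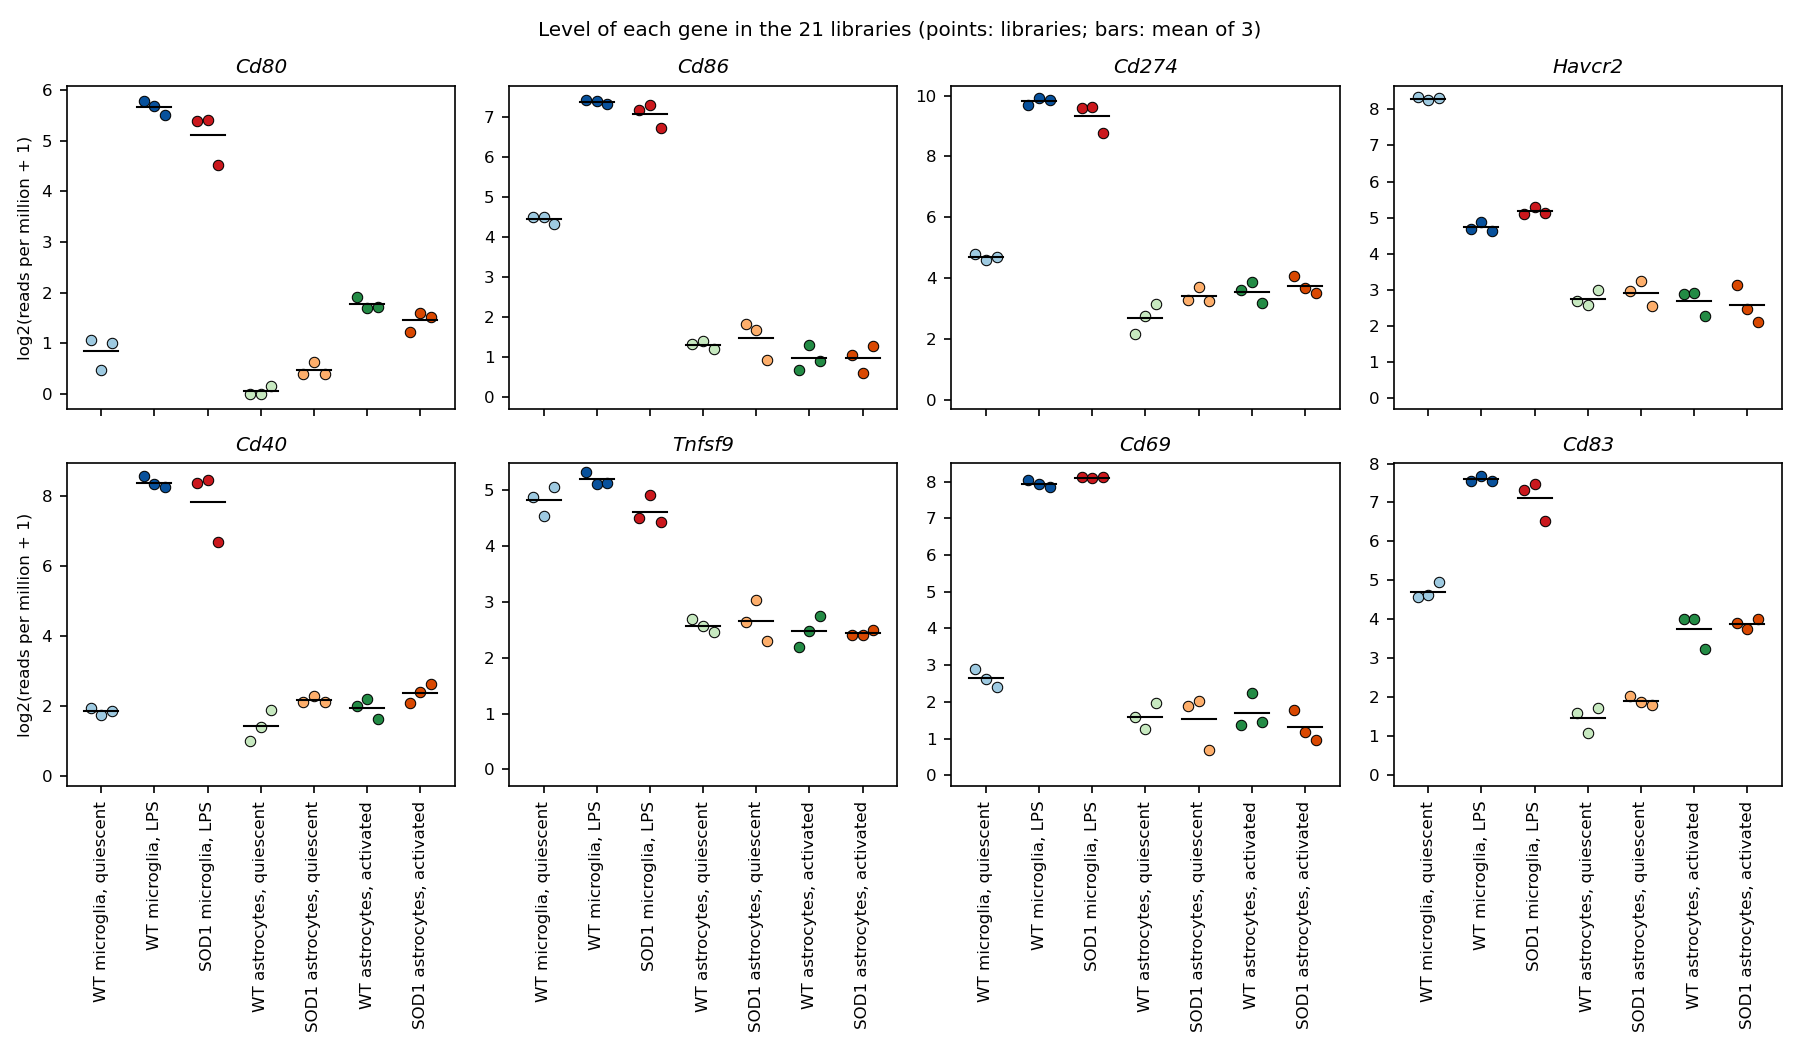
Level of each of the 8 genes in the 21 libraries, as log2(RPM + 1) on the vertical axis. Each point is a library and each bar the mean of 3; *Havcr2* is highest in quiescent WT microglia, whereas *Cd80*, *Cd86*, *Cd274*, *Cd40*, *Tnfsf9* and *Cd83* are highest in LPS-activated WT microglia.

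In WT microglia *Cd86*, *Cd274*, *Cd40*, *Cd69* and *Cd83* rose with LPS and *Havcr2* fell, each by more than 2-fold. A gene was called changed at an adjusted p under 0.001 and a change of over 2-fold. *Cd80* was also called higher but is not counted, for the reason given with its values below. Of the 10866 genes tested, 10.2% were called higher and 10.6% lower. The median log2 fold change was 4.29 over the 8 genes, *Cd80* included, and 0.00 over all genes tested, and the median absolute values were 4.38 and 0.47. Values below are normalized counts, in which each library's reads are divided by its size factor, and fold changes are limma estimates on log2(normalized count + 1), with the standard error after the sign ±.

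The CD28-family ligands rose from low levels. *Cd80* stood at 5.58, 2.10 and 5.30 normalized counts in quiescent WT microglia and at 324, 316 and 269.5 after LPS. *Cd86* stood at 111, 116 and 99.1 before and at 1016, 1037.5 and 965 after. For both genes the activated libraries lay far above each quiescent one, but the starting points differed, since *Cd80* rested on 11, 1 and 7 reads in quiescent cells. Its mean of 4.33 there lay below the mean of 10 normalized counts that the test required over all libraries. *Cd80* was therefore tested because of its level after LPS, and its call is not counted. *Cd80* rose by 5.91 ± 0.28 on the log2 scale (limma adjusted p = 3.6e-08) and *Cd86* by 3.20 ± 0.10 (adjusted p = 1.3e-09). The estimate for *Cd80* depends on the count added before the logarithm and lay between 5.06 and 6.10 over all settings.

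*Cd274*, which encodes the inhibitory ligand PD-L1, rose as well. It stood at 139, 124 and 130.2 normalized counts in quiescent WT microglia and at 4871, 6084 and 5628 after LPS. The rise was 5.38 ± 0.10 on the log2 scale, or 41.8-fold (95% interval 35.8 to 48.7, adjusted p = 4.9e-11). LPS thus moved ligands of both activating and inhibitory T cell receptors in the same direction. An antisense transcript model overlaps *Cd274* on the other strand. The libraries were strand-specific, but whether the counting used strand is not given in the sources used here.

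*Cd40* had the greatest change of the 8. Its normalized counts were 14.7, 12.6 and 13.6 in quiescent WT microglia and 2264, 2041 and 1878 after LPS, a rise of 7.13 ± 0.12 on the log2 scale (140.5-fold, 95% interval 117 to 168, adjusted p = 2.4e-11). *Tnfsf9* behaved differently. It stood at 146, 119.9 and 169.5 normalized counts before and at 234, 211 and 208 after LPS, so the groups did not overlap, yet the change of 0.59 ± 0.14 (1.51-fold, adjusted p = 0.00406) missed the threshold. A long noncoding RNA gene, *Gm11110*, overlaps *Tnfsf9* on the other strand.

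The activation markers both rose. *Cd69* went from 33.5, 27.3 and 22.7 normalized counts to 1563, 1512 and 1391, a rise of 5.71 ± 0.14 on the log2 scale (adjusted p = 3.1e-10). *Cd83* was already present in quiescent cells, at 117, 126 and 157 normalized counts, and reached 1116, 1277 and 1138, a rise of 3.14 ± 0.12 (adjusted p = 7.3e-09). Neither gene had overlapping groups. All 8 genes had groups that did not overlap, as did 64.6% of the 10866 genes tested, a share computed after the data were seen.

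*Havcr2*, the inhibitory receptor TIM-3, moved the opposite way. It stood at 1661, 1633 and 1654 normalized counts in quiescent WT microglia and at 148, 179 and 146 after LPS, a log2 change of -3.38 ± 0.10 (10.4-fold lower, adjusted p = 1.1e-09). The microglial marker sum also fell with LPS, from 12460 or more to 4519.9 or fewer RPM, with *Trem2* at 527 RPM before and 38.3 RPM after, *Cx3cr1* at 1414 and 259.8 RPM and *Itgam* at 1069 and 766 RPM. The part of these shifts in the fall of *Havcr2* was not tested. Leaving out replicate 1 of LPS-activated WT microglia gave log2 changes of 7.06 for *Cd40*, 5.86 for *Cd80*, 3.19 for *Cd86*, 5.47 for *Cd274*, 5.67 for *Cd69*, 3.18 for *Cd83*, -3.34 for *Havcr2* and 0.54 for *Tnfsf9*.

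Markers of other antigen-presenting cells shifted with LPS too. The 8 dendritic cell markers summed to 53.3 to 58.6 RPM in quiescent and 114 to 119 RPM in LPS-activated WT microglia, with *Itgax* leading before and *Ccr7* after. *Cd209a* was at 0 in both, *Clec9a* and *Zbtb46* averaged 0.0410 and 1.40 RPM after LPS, and *Flt3* averaged 0.0328 RPM before and 1.47 RPM after. The 8 monocyte and border macrophage markers summed to 6.20 to 9.51 RPM before and 16.7 to 17.8 RPM after, led after LPS by *Ccr2*, with *Lyve1* at 0 in both. Endothelial markers summed to 83.6 to 94.9 RPM before and 51.2 to 64.7 RPM after, and pericyte and fibroblast markers to 5.19 to 11.7 and 16.9 to 19.3 RPM. The oligodendrocyte lineage list of 8 markers summed to 1317, 1343 and 1359 RPM in quiescent and to 105, 103 and 110.0 RPM in LPS-activated WT microglia, and *Cspg4* led it in both, with nearly all of the sum before LPS, while *Pdgfra* and *Sox10* each averaged at most 1.77 RPM. The part of these lists in the LPS response was not tested.

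**Figure D2:**
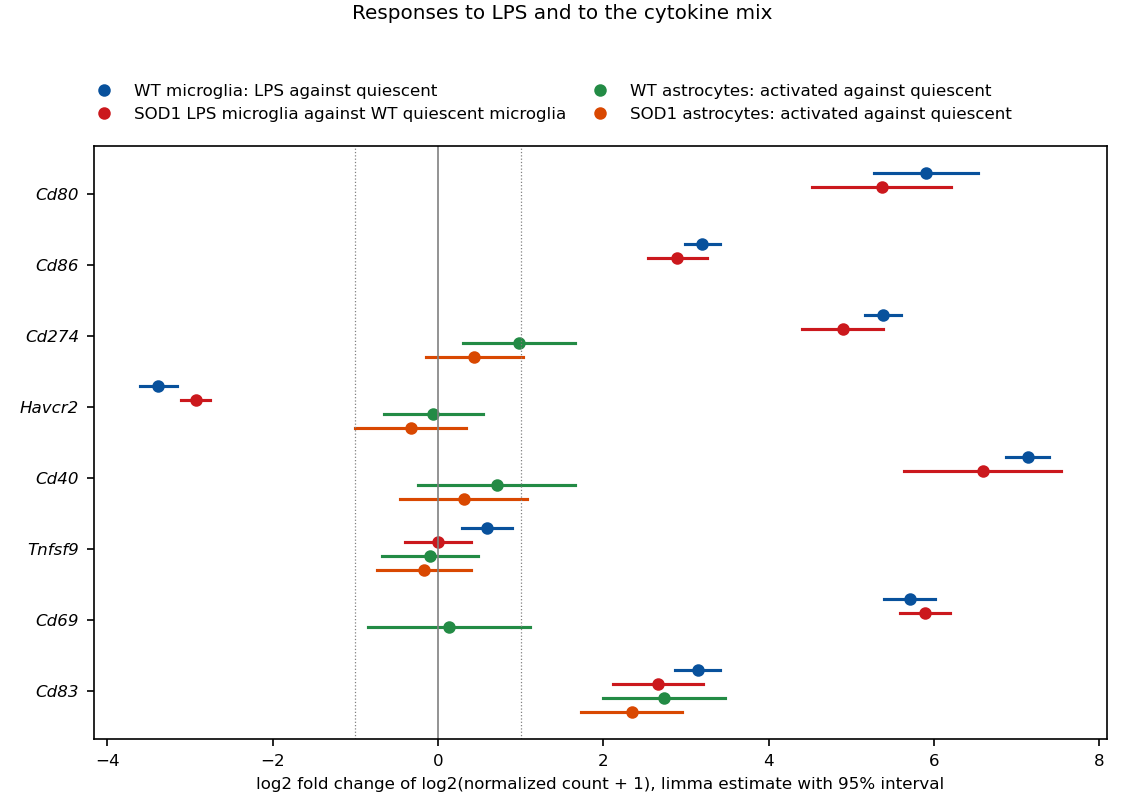
Log2 fold changes of the 8 genes (limma estimate, points) with their 95% intervals (lines) after LPS in microglia and after the cytokine mix in astrocytes; genes below a mean of 10 normalized counts have no point. In WT microglia *Cd40* rose by 7.13 and *Havcr2* fell by 3.38, whereas in WT astrocytes *Cd83*, at 2.74, was the only one of the 6 genes tested that was called. There *Cd83* was tested because of its level after the mix.

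Genes of the surrounding pathways moved in part with them. Of 19 other costimulatory and checkpoint ligands, 13 were tested, 5 rose and 2 fell with LPS in WT microglia. *Tnfsf15*, a TNF-family ligand, rose by 6.33 ± 0.44, *Cd200*, an inhibitory ligand, by 4.72 ± 0.21 and *Pvr*, a ligand of DNAM-1 and TIGIT, by 2.31 ± 0.12 on the log2 scale. The median log2 change of the 13 was 0.75. Of 11 receptors and counter-ligands usually found on lymphocytes, 3 were tested and 2 rose, *Lag3* by 4.14 ± 0.31 and *Tnfrsf9*, which encodes the receptor for the product of *Tnfsf9*, by 3.89 ± 0.57, while *Pdcd1* stood at 0.17 ± 0.26. Without any one of the 3 LPS libraries *Tnfrsf9* was no longer tested, which left 1 gene called of 2, and when each library had to reach the required value neither *Lag3* nor *Tnfrsf9* was tested.

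Of 12 inhibitory myeloid receptors 10 were tested, 3 rose and 1 fell. *Siglece* rose by 4.21 ± 0.14 and *Pirb* by 2.09 ± 0.09, and *Cd300a* changed by -2.04 ± 0.19. *Lilrb4a* rose by 1.04 ± 0.09 and lost its call without replicate 1 of LPS-activated WT microglia, at 0.96. All 14 genes of CD40 and 4-1BB signalling were tested and 7 rose, with a median of 1.35, led by the adaptor *Traf1* (7.07 ± 0.19) and the ubiquitin-editing enzyme *Tnfaip3* (4.28 ± 0.10). Of 15 NF-κB, IRF and STAT factors 8 rose, with a median of 1.15, led by *Batf* (6.59 ± 0.42), *Irf7* (5.51 ± 0.08) and *Stat2* (3.07 ± 0.09).

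Antigen presentation genes moved in both directions. Of 12 such genes 11 were tested, 6 rose and 2 fell, with a median of 1.15. *Tap1*, a peptide transporter, rose by 3.36 ± 0.09 and the class I gene *H2-K1* by 2.92 ± 0.09, whereas *H2-DMa* and *H2-DMb1*, which help load class II, changed by -2.88 ± 0.21 and -1.93 ± 0.24. The class II gene *H2-Ab1* rose by 1.15 ± 0.12. Of 9 binding partners and regulators of surface turnover, 2 rose and 3 fell, with a median of -0.04. The ubiquitin ligase *March1*, which removes CD86 from the surface, rose by 1.21 ± 0.13, and *Ceacam1*, a binding partner of TIM-3, changed by -1.80 ± 0.19.

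*SOD1G93A* microglia activated with LPS were compared with the same quiescent WT libraries, so this comparison shares its controls with the one above and its values are set beside it without a further test. Again *Cd86*, *Cd274*, *Cd40*, *Cd69* and *Cd83* were called higher and *Havcr2* lower, where 8.22% of 10921 genes were called higher and 7.51% lower. *Cd80* was called higher too, but averaged 4.59 normalized counts in the quiescent libraries. It was tested because of its level after LPS, so that call is not counted. The log2 changes were 5.37 ± 0.37 for *Cd80*, 2.90 ± 0.16 for *Cd86*, 4.90 ± 0.21 for *Cd274*, 6.59 ± 0.42 for *Cd40*, 5.89 ± 0.13 for *Cd69*, 2.66 ± 0.24 for *Cd83*, -2.93 ± 0.08 for *Havcr2* and 0.00 ± 0.17 for *Tnfsf9*. Without replicate 3 they were 5.69, 3.09, 5.20, 7.19, 5.90, 2.97, -2.89 and 0.12 in the same order, where 2187 of 10938 genes were called in either direction in place of 1718 of 10921. For *Cd40* this took the fold change from 96.3 to 146. The contrast mixes genotype with activation, which cannot be told apart in it.

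Activated *SOD1G93A* and WT microglia were then compared directly, to ask whether the transgene alters the activated state. No gene passed, neither any of the 8 nor any of the 10679 tested by limma (0%), 930 of which had an unadjusted p under 0.05. DESeq2 on the recovered reads called 2 genes and edgeR called 0, none of them among the 8. By limma 3 of the 8 had an unadjusted p under 0.05. Without replicate 3 of the *SOD1G93A* cells 581 of 10665 genes had one, among them 2 of the 8, *Havcr2* and *Tnfsf9*, and limma again called no gene. Without replicate 1 of the WT cells 941 of 10680 genes had one, among them *Cd69*, *Havcr2* and *Tnfsf9*, and no gene was called. The log2 differences were then -0.48 for *Cd40*, -0.51 for *Cd80*, -0.30 for *Cd86*, -0.58 for *Cd274*, 0.22 for *Cd69*, -0.52 for *Cd83*, 0.41 for *Havcr2* and -0.54 for *Tnfsf9*.

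*Cd40* shows how one library bore on this comparison. It stood at 2248, 2024 and 1878 normalized counts in WT LPS microglia and at 2053, 2157 and 612 in *SOD1G93A* LPS microglia. Replicates 1 and 2 lay inside the WT range and replicate 3 far below it. The log2 difference (*SOD1G93A* minus WT) was -0.55 ± 0.41 with replicate 3 and 0.04 without it, where the 95% interval ran from -0.19 to 0.27.

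The same library was the lowest of 6 for 5 other genes. *Cd80* stood at 322, 313 and 269.6 normalized counts in WT and at 254, 255 and 131 in *SOD1G93A* cells. *Cd86* stood at 1009, 1029 and 965 and at 886, 957 and 622, and *Cd274* at 4837, 6035 and 5629 and at 4799.7, 4775 and 2582. In each of these 3 genes all *SOD1G93A* libraries were below all WT libraries, by a narrow margin for replicates 1 and 2. The log2 differences of -0.56, -0.31 and -0.49 became -0.24, -0.12 and -0.19 without replicate 3, with 95% intervals that reached 0.04, 0.09 and 0.05.

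*Cd83* stood at 1108, 1267 and 1138 normalized counts in WT and at 990.1, 1084 and 544 in *SOD1G93A* cells, a log2 difference of -0.48 that became -0.17 without replicate 3. *Tnfsf9* stood at 232, 209.7 and 208 in WT and at 134, 179 and 122 in *SOD1G93A* cells. Its difference of -0.59 ± 0.16 (95% interval -0.95 to -0.24, adjusted p = 0.571) was -0.48 without replicate 3, where the adjusted p was 0.855. Over all settings its adjusted p lay between 0.427 and 0.855.

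*Cd69* and *Havcr2* went the other way, and did so in each *SOD1G93A* library. *Cd69* stood at 1552, 1499.8 and 1391 normalized counts in WT and at 1708, 1665 and 1658 in *SOD1G93A* cells, a log2 difference of 0.18 ± 0.09 with replicate 3 and of 0.19 without it. *Havcr2* stood at 147, 178 and 146 in WT and at 206, 235 and 203 in *SOD1G93A* cells, a difference of 0.45 ± 0.13 (95% interval 0.16 to 0.75, adjusted p = 0.571) with replicate 3 and of 0.49 without it. Neither passed the test over all genes, and a p that misses the threshold does not show that the genotypes were alike. In all, 7 of the 8 genes had groups that did not overlap, with replicate 3 included, as did 18.2% of the 10679 genes tested. Between 3 and 3 libraries an exact permutation test of a single gene cannot go below p = 0.1.

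Marker levels differed along with these values. In replicate 3 the microglial markers summed to 6324 RPM against 4725 and 4607 RPM in the other *SOD1G93A* libraries, *Csf1r* stood at 1282 RPM against 845 and 817 RPM, and *Cspg4* at 212 RPM against 112 and 107 RPM. In WT LPS microglia the same values were 4267 to 4519.9, 735 to 787 and 61.3 to 68.5 RPM, so for each of the 3 all *SOD1G93A* libraries lay above all WT ones, as they did for *Havcr2*. The dendritic cell list was led by *Itgax* in replicate 3, with 62.3 RPM, and by *Ccr7* in the other activated libraries. The monocyte and border macrophage list summed to 20.8 RPM in replicate 3 against 12.8 and 12.6 RPM, and to 16.7 to 17.8 RPM in WT. The endothelial list summed to 33.9 RPM in replicate 3 against 55.3 and 64.6 RPM, and the pericyte and fibroblast list to 10.6 RPM against 13.4 and 15.0 RPM. The part of these levels in the differences was not tested. None of the 7 pathway lists had a called gene in this comparison, and their medians lay between -0.24 and 0.08.

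**Figure D3:**
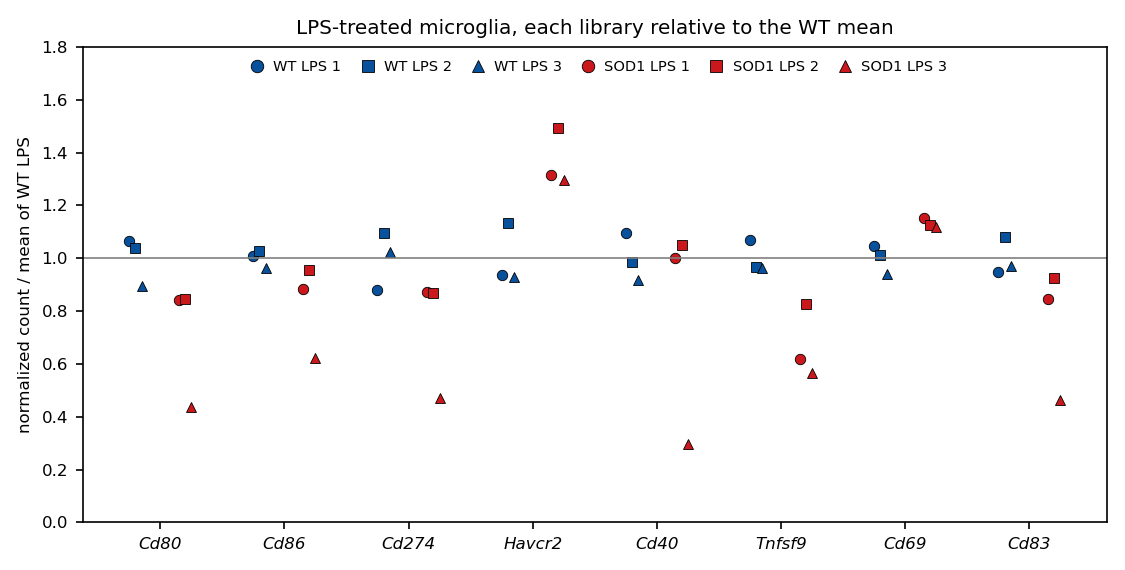
Normalized counts of the 8 genes in each of the 6 LPS-activated microglia libraries, divided by the mean of the 3 WT libraries (grey line at 1). Circles, squares and triangles are replicates 1, 2 and 3; replicate 3 of *SOD1G93A* is the lowest for *Cd40* (612 normalized counts), *Cd80*, *Cd86*, *Cd274*, *Cd83* and *Tnfsf9*.

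In WT astrocytes 1 of the 6 genes tested, *Cd83*, was called after the cytokine mix, where 6.0% of 12336 genes were called higher. It averaged 8.59 normalized counts in the quiescent libraries, on 4, 4 and 21 reads, and 62.5 in the activated ones. It was therefore tested because of its level after the mix, and its call is not counted here. *Cd80* and *Cd86* lay below the mean of 10 normalized counts that the test required. The median log2 change was 0.42 over the 6 genes and 0.01 over all genes tested.

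*Cd83* stood at 9.32, 5.25 and 11.2 normalized counts in quiescent and at 73.3, 72.7 and 41.4 in activated WT astrocytes. All activated libraries lay above all quiescent ones. The rise was 2.74 ± 0.33 on the log2 scale (6.66-fold, 95% interval 3.99 to 11.1, adjusted p = 6.8e-05). Without replicate 1 of the activated WT astrocytes it was 2.60, with an adjusted p of 0.00122 that missed the threshold, and over all settings the adjusted p lay between 4.2e-10 and 0.00122.

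*Cd274* stood at 16.3, 27.6 and 38.9 normalized counts before and at 54.0, 65.6 and 40.5 after the mix, so that the groups just failed to overlap. Groups did not overlap in 50.9% of the 12336 genes tested. Its change of 0.98 ± 0.31 (adjusted p = 0.0268, between 0.00209 and 0.114 over all settings) was not called. *Cd40* stood at 4.66, 7.87 and 13.3 and at 14.5, 17.1 and 10.3, with overlapping groups and a change of 0.71 ± 0.43. *Cd69*, *Havcr2* and *Tnfsf9* changed by 0.13 ± 0.44, -0.05 ± 0.27 and -0.10 ± 0.26, each with overlapping groups. For *Havcr2* the 95% interval ran from -0.66 to 0.55 on the log2 scale.

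*Cd80* was near the limit of detection in WT astrocytes. It had 0, 0 and 1 reads in the 3 quiescent libraries, 1 in 14912514 reads, and 14, 15 and 13 reads in the 3 activated ones, 42 in 17565591. The ratio of the summed rates was 35.7, with a 95% counting interval of 6.06 to 1441 that covers counting error only. In the fit with no filter on low values its adjusted p was 4.9e-05. *Cd86* had 21 reads in quiescent and 18 in activated WT astrocytes, a ratio of 0.728 (counting interval 0.365 to 1.43).

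Astrocytes of *SOD1G93A* mice responded in the same gene. Since no deposited table holds both of their states, their levels are given in RPM, which do not depend on the separate scaling of the tables. *Cd83* stood at 3.04, 2.62 and 2.43 RPM in quiescent and at 14.0, 12.5 and 15.0 RPM in activated *SOD1G93A* astrocytes. The quiescent values rested on 29, 19 and 8 reads. It was the 1 gene called among the 5 tested, with a rise of 2.35 ± 0.29 (adjusted p = 3.4e-06, between 5.8e-12 and 5.1e-05 over all settings), where 6.74% of 12269 genes were called higher. *Cd274* changed by 0.44 ± 0.28, *Cd40* by 0.31 ± 0.36, *Havcr2* by -0.33 ± 0.32 and *Tnfsf9* by -0.17 ± 0.27.

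Among the genes below the required mean, *Cd80* had 8 reads in quiescent and 17 in activated *SOD1G93A* astrocytes, at 3, 4 and 1 and at 5, 8 and 4 reads per library. The ratio of the summed rates was 4.36 (counting interval 1.78 to 11.7). *Cd86* had 24, 16 and 3 reads before and 4, 2 and 3 after, or 43 and 9 in all, a ratio of 0.429 (0.184 to 0.893, counting error only), but its libraries overlapped, at 2.52, 2.21 and 0.911 RPM before and 1.07, 0.509 and 1.40 RPM after. *Cd69* had 50 and 16 reads, a ratio of 0.656 (0.349 to 1.17). The microglial markers fell with the mix as well, from 599, 592 and 459.9 RPM to 451, 332 and 362 RPM, with *Csf1r* at 55.6 to 79.2 RPM before and 34.4 to 47.8 RPM after. The part of these transcripts in the *Cd86* reads was not tested, nor was *Cd86* itself.

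The difference between the 2 genotypes' responses was tested with an interaction term. None of the 5 genes tested passed, and limma called 0 of 12269 genes (0%), 1018 of which had an unadjusted p under 0.05. DESeq2 called 22 genes and edgeR 4, none of them among the 8. The interaction was -0.38 ± 0.41 for *Cd83* and -0.53 ± 0.39 for *Cd274*. For *Cd83* the 95% interval of -1.24 to 0.49 left room for a difference of over 2-fold.

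Between quiescent *SOD1G93A* and WT astrocytes limma called none of the 6 genes tested and 0 of 12271 genes (0%). An unadjusted p under 0.05 was found for 2 of the 6, *Cd40* and *Cd274*, and for 1068 of all genes, while DESeq2 called 7 and edgeR 0. None of those calls was among the 8. *Cd40* stood at 4.91, 8.20 and 13.8 normalized counts in WT and at 16.9, 18.9 and 16.3 in *SOD1G93A* cells, a log2 difference of 0.98 ± 0.40 (95% interval 0.08 to 1.88, adjusted p = 0.535). *Cd274* stood at 17.2, 28.7 and 40.4 and at 43.9, 58.7 and 41.5, a difference of 0.78 ± 0.31 (adjusted p = 0.517). The WT values rested on few reads, 2, 6 and 25 for *Cd40* and 7, 21 and 73 for *Cd274*. *Cd83* differed by 0.57 ± 0.39. Groups did not overlap for these 3 of the 6 genes tested, and for 14.6% of all genes tested. The microglial markers summed to 361, 437 and 522 RPM in the WT and to 599, 592 and 459.9 RPM in the *SOD1G93A* libraries, led by *Sall1* with 159 to 189.9 RPM. The oligodendrocyte lineage markers summed to 2778 to 2956 RPM in the WT and to 3177 to 3421 RPM in the *SOD1G93A* libraries. The endothelial markers summed to 10.7 to 14.6 RPM in the WT and to 7.77 to 8.69 RPM in the *SOD1G93A* libraries. The part of the microglial transcripts and of these lists in the differences was not tested.

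In activated astrocytes limma called 78 of 12098 genes (0.645%) between the genotypes and 0 of the 5 genes tested among the 8, none of which had an unadjusted p under 0.05. *Cd40* differed by 0.57 ± 0.33, *Cd274* by 0.25 ± 0.21, *Cd83* by 0.19 ± 0.20, *Havcr2* by -0.10 ± 0.31 and *Tnfsf9* by 0.00 ± 0.28 on the log2 scale. DESeq2 and edgeR also called none of them. Of 14 NF-κB, IRF and STAT factors tested, 4 were higher in *SOD1G93A* cells, with a median of -0.03 over the 14. Among the 4 were *Irf9* by 1.45 ± 0.10, *Irf7* by 1.27 ± 0.18 and *Stat2* by 1.02 ± 0.15. Of 6 antigen presentation genes 1 was higher, *Tap1* by 1.18 ± 0.13, with a median of 0.90 over the 6. *H2-K1* (0.95 ± 0.09), *B2m* (0.91 ± 0.07) and *H2-D1* (0.89 ± 0.12) had adjusted p of 2.5e-07, 4.0e-08 and 3.7e-05 and missed the required fold. Without replicate 2 of WT activated astrocytes *H2-K1* passed as well, and without replicate 2 of *SOD1G93A* activated astrocytes both *H2-K1* and *H2-D1* did. The call of *Stat2* was lost with DESeq2, at 1.08, and without replicate 3 of WT or replicate 1 or 2 of *SOD1G93A* activated astrocytes, at 1.00, 0.77 and 1.11. Endothelial markers summed to 139, 149 and 155 RPM in WT and to 119, 117 and 112 RPM in *SOD1G93A* activated astrocytes. Pericyte and fibroblast markers summed to 45.2 to 54.7 RPM in WT and to 34.1 to 38.7 RPM in *SOD1G93A* cells. The part of these lists in the differences was not tested.

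Other pathway genes responded to the mix in WT astrocytes. Of 14 genes of CD40 and 4-1BB signalling 6 rose, with a median of 0.96, led by *Nfkbia*, the inhibitor of NF-κB (4.55 ± 0.13), *Birc3* (3.37 ± 0.36), *Relb* (2.92 ± 0.14) and *Tnfaip3* (2.86 ± 0.32). Of 14 NF-κB, IRF and STAT factors 5 rose, with a median of 0.71, led by *Irf1* (2.45 ± 0.17) and *Nfkb1* (2.30 ± 0.10). Of 10 other ligands 3 rose, *Cd47* by 2.28 ± 0.18, *Icosl* by 2.10 ± 0.18 and *Pvr* by 1.29 ± 0.11. Of 6 antigen presentation genes *Tap1* rose by 1.37 ± 0.16. *Tap2* changed by 1.19 ± 0.21 and missed the threshold (adjusted p = 0.00108, between 5.9e-06 and 0.0099 over all settings), but was called with DESeq2 and edgeR, with 5 added to each count, with a term for sample numbers, and without replicate 2 or 3 of quiescent WT astrocytes. None of 5 inhibitory myeloid receptors or 8 partners was called, and no gene of the lymphocyte list was tested. Without any one of the 3 quiescent libraries 1 gene of that list was tested and called, and with no filter on low values 1 of 7 was called.

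In *SOD1G93A* astrocytes 5 of 14 signalling genes, 7 of 14 factors, 4 of 11 other ligands and 4 of 6 antigen presentation genes rose, and none of 5 inhibitory receptors or 8 partners was called. *Irf1* rose by 2.61 ± 0.16, *Tnfsf18*, the GITR ligand, by 3.11 ± 0.53 and *H2-K1* by 1.40 ± 0.12. *Birc3* rose by 2.24 ± 0.37 and lost its call without replicate 1 or 2 of activated *SOD1G93A* astrocytes, at 2.05 and 2.09.

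Marker lists of other cell types moved with the mix. The 7 endothelial markers summed to 10.7 to 14.6 RPM in quiescent and to 139, 149 and 155 RPM in activated WT astrocytes, which was nearly all *Flt1*, whereas *Cldn5* was at 0 in both and *Cdh5* at 0 after the mix. The 6 pericyte and fibroblast markers summed to 9.42 to 17.0 RPM before, led by *Pdgfrb*, and to 45.2 to 54.7 RPM after, led by *Lum*. The 8 oligodendrocyte lineage markers summed to 2778 to 2956 RPM before and to 1043 to 1104 RPM after, led by *Olig1*, with *Mog* at 0 before. The 6 neuronal markers, nearly all *Map2*, summed to 749.6 to 973 RPM before and to 385 to 438 RPM after. In *SOD1G93A* astrocytes the same lists went from 7.77 to 8.69 RPM before to 112 to 119 RPM after (endothelial), from 8.27 to 9.34 RPM to 34.1 to 38.7 RPM (pericyte and fibroblast), from 3177 to 3421 RPM to 1014 to 1079 RPM (oligodendrocyte lineage) and from 908 to 991 RPM to 391 to 426 RPM (neuronal). The part of these lists in the rise of *Cd83* was not tested in either genotype. In WT astrocytes microglial markers summed to 361 to 522 RPM before and 373 to 529.98 RPM after, the dendritic list to 2.98 to 7.56 and 7.31 to 11.5 RPM, led by *Zbtb46*, and the monocyte list to at most 0.825 RPM.

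The cell types were compared in their quiescent state. *Havcr2*, *Tnfsf9*, *Cd274* and *Cd69* were higher in WT microglia than in WT astrocytes, where 22.0% of 12334 genes were called higher and 25.6% lower. *Cd83* and *Cd86* were also called higher, with a limit given below. The log2 differences were 6.27 ± 0.19 for *Havcr2*, 4.24 ± 0.25 for *Cd83*, 4.15 ± 0.23 for *Cd86*, 2.95 ± 0.19 for *Tnfsf9*, 2.69 ± 0.24 for *Cd274* and 1.81 ± 0.30 for *Cd69*. *Cd40* differed by 1.09 ± 0.29 (adjusted p = 0.00313), which missed the threshold but passed it without replicate 3 of quiescent WT astrocytes, at 1.43. *Cd80* was also called, but it had 11, 1 and 7 reads in quiescent microglia and 0, 0 and 1 in quiescent astrocytes, so neither group reached the required mean and it was tested only because the fit held the LPS libraries. That call is therefore not counted here, and it was lost with 5 added to each count. *Cd86* reached the required mean in quiescent microglia but not in WT astrocytes alone, so it was tested because of its level in microglia. *Cd83* averaged 8.59 normalized counts in quiescent WT astrocytes, below the required mean, and was tested because of its level in other libraries of the fit. The calls of *Cd86* and *Cd83* are therefore not counted either. Scaling by TMM factors moved the median over all genes by 0.13 on the log2 scale in this comparison. The cells were purified and cultured differently, so cell type and method cannot be told apart.

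When each library had to reach the required value, 4 inhibitory myeloid receptors and 5 antigen presentation genes were tested, and all were called. With the filter on the mean, 10 and 11 were tested and all were higher in quiescent microglia. Their medians were 5.63 and 4.49 beside -0.07 over all genes. In WT astrocytes alone only 5 and 6 of these genes reached the required mean. The others were tested because of their level in microglia, so their calls are not counted here. Among other ligands 5 of 12 were higher, led by *Cd48* (6.26 ± 0.35), and 3 were lower, among them *Cd200* at -1.96 ± 0.26.

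The responses themselves differed between the cell types. In an interaction test over 12334 genes, LPS in WT microglia raised *Cd40*, *Cd69* and *Cd274* by more than the cytokine mix did in WT astrocytes. It also lowered *Havcr2* more. Of all genes, 6.73% had a more positive and 8.44% a more negative change in microglia. The log2 differences between the responses were 6.47 ± 0.41 for *Cd40*, 5.61 ± 0.43 for *Cd69*, 4.43 ± 0.35 for *Cd274* and -3.31 ± 0.27 for *Havcr2*. For *Cd83* it was 0.45 ± 0.35 (95% interval -0.31 to 1.21) and for *Tnfsf9* 0.72 ± 0.27 (adjusted p = 0.0466), which were not called. In WT astrocytes alone *Cd80* and *Cd86* were below the required mean, at 5.99 and 5.93 normalized counts, and they were tested here because of their level in LPS microglia. When each library had to reach the required value, 3 of the 8 were tested and 2, *Cd274* and *Havcr2*, were called. The stimuli differ as well as the cells, so cell type and stimulus cannot be told apart.

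The call for *Cd80* in that test was weak. It was lost with 0.5 added to each count (2.01), with no filter on low values, with DESeq2 (1.10) and edgeR (1.20), and without 7 of the 12 libraries in turn. These were each of the 3 LPS microglia (2.61, 2.65 and 2.75 for replicates 1, 2 and 3), each of the 3 activated astrocytes (2.76, 2.61 and 2.64) and replicate 3 of the quiescent astrocytes (2.48). Its adjusted p lay between 4.2e-08 and 0.734 over all settings.

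Levels over the 7 conditions fell into orders that differed between genes. They are given in RPM as mean ± SD (n = 3 libraries), since the tables were normalized separately, and the order of cell types near each other can turn with another scaling. *Cd274* averaged 904 ± 79.1 in WT LPS microglia, 662 ± 198 in *SOD1G93A* LPS microglia and 24.9 ± 1.88 in quiescent WT microglia, then 12.6 ± 2.89, 11.0 ± 2.71 and 9.74 ± 1.96 in activated *SOD1G93A*, activated WT and quiescent *SOD1G93A* astrocytes, and 5.71 ± 2.21 in quiescent WT astrocytes. The last 4 formed a near continuum in which only the lowest pair of neighbours did not overlap. *Cd40* averaged 338 ± 37.1 and 262 ± 138 in WT and *SOD1G93A* LPS microglia, which overlapped, and 1.78 ± 0.862 to 4.23 ± 0.967 in the other 5 conditions, where each overlapped its neighbour. Replicate 3 of the *SOD1G93A* LPS microglia stood at 103 RPM for this gene, against 331 and 352 RPM in replicates 1 and 2, so the order of the first 2 conditions rests on it.

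*Cd80* averaged 49.7 ± 5.05 and 34.9 ± 11.1 in WT and *SOD1G93A* LPS microglia, 2.42 ± 0.310 and 1.75 ± 0.362 in activated WT and *SOD1G93A* astrocytes, 0.828 ± 0.379 in quiescent WT microglia, and 0.390 ± 0.140 and 0.0360 ± 0.0624 in quiescent *SOD1G93A* and WT astrocytes. *Cd86* averaged 165 ± 5.92, 134 ± 26.8 and 20.7 ± 1.55 in WT LPS, *SOD1G93A* LPS and quiescent WT microglia, with no overlap between neighbours, and at most 1.88 ± 0.853 in the astrocyte conditions, which overlapped.

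*Cd69* averaged 275 ± 3.37 in *SOD1G93A* and 244 ± 16.9 in WT LPS microglia, 5.31 ± 1.10 in quiescent WT microglia, and 1.54 ± 0.777 to 2.34 ± 1.18 in astrocytes. *Cd83* averaged 193 ± 9.66, 143 ± 45.3 and 25.3 ± 3.92 in WT LPS, *SOD1G93A* LPS and quiescent WT microglia, 13.8 ± 1.27 and 12.8 ± 3.88 in activated *SOD1G93A* and WT astrocytes, and 2.698 ± 0.314 and 1.78 ± 0.609 in the quiescent ones. For *Cd83* only the 2 activated astrocyte conditions overlapped their neighbour.

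*Havcr2* averaged 314 ± 9.04 in quiescent WT microglia, 35.2 ± 2.67 and 25.8 ± 2.48 in *SOD1G93A* and WT LPS microglia, and 5.22 ± 2.32 to 6.74 ± 1.85 in astrocytes, which overlapped. *Tnfsf9* had the narrowest range. It averaged 35.7 ± 3.00, 27.7 ± 5.00 and 23.8 ± 4.73 in WT LPS, quiescent WT and *SOD1G93A* LPS microglia, of which the last pair overlapped, and 4.44 ± 0.214 to 5.46 ± 1.62 in the astrocyte conditions, which overlapped.

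Per length, as RPM divided by kilobases of exon, the most abundant of the 8 transcripts changed with state. In quiescent WT microglia *Havcr2* led at 115 ± 3.32, followed by *Tnfsf9* at 21.4 ± 3.88 and *Cd83* at 9.85 ± 1.52, and *Cd80* was lowest at 0.224 ± 0.102. In WT LPS microglia *Cd274* led at 249.6 ± 21.8, followed by *Cd40* at 99.2 ± 10.9 and *Cd83* at 74.9 ± 3.76, and *Havcr2* was lowest at 9.49 ± 0.911. In quiescent WT astrocytes *Tnfsf9* led at 3.86 ± 0.357, and in activated ones *Cd83* did on average, at 4.99 ± 1.51, although in replicate 3 *Tnfsf9* stood at 4.45 and *Cd83* at 3.25.

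Genes with the most similar pattern over the 21 libraries were sought among 12536 genes by Pearson's r on log2(RPM + 1), as a description in which the libraries share conditions and depth. For *Cd40* these were *Ccl5* (0.994), *Ccr7* (0.993) and *Ifi205* (0.993), and for *Cd274* *Pyhin1* (0.995), *Irf7* (0.994) and *Ccrl2* (0.994). For *Cd80* they were *Ptges* (0.994), *Il6* (0.993) and *Socs3* (0.992), and for *Cd86* *Grap* (0.997), *Ccl4* (0.996) and *Ms4a6d* (0.995). For *Cd69* they were *Aoah* (0.993), *Irg1* (0.993) and *Ccl9* (0.993), and for *Cd83* *Slc3a2* (0.995), *Zfp36* (0.990) and *Birc3* (0.989). For *Havcr2* they were *Trem2* (0.991), *Plxdc2* (0.990) and *Pla2g15* (0.988), and for *Tnfsf9* *Rhov* (0.987), *AI662270* (0.982) and *Rasa4* (0.982). Among the 8 genes r ran from 0.221 between *Cd80* and *Havcr2* to 0.983 between *Cd274* and *Cd69* (n = 21 libraries).

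The 8 genes are protein-coding and lie on 7 chromosomes of the mm10 build. *Cd80* (chr16:38455561-38496335) and *Cd86* (chr16:36603869-36666081) share chromosome 16 on opposite strands. *Cd40* lies at chr2:165055627-165072948, *Cd274* at chr19:29367455-29388095, *Cd69* at chr6:129267325-129275436, *Cd83* at chr13:43784775-43803132, *Havcr2* at chr11:46454935-46481255 and *Tnfsf9* at chr17:57105325-57107757.

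Promoters of 3 of the 8 genes, 250 bases before to 50 bases after the start given for the gene there, were found in a RefSeq table of build GRCm38.p6. These 3 are shown because promoters of the other genes were not in it. Of the 3, *Cd80* and *Cd274* rose with LPS and *Havcr2* fell. All are on the plus strand, written 5′ to 3′, and capitals mark a match to one of 5 motifs on either strand. The motifs searched were AP-1 (TGANTCA, in 7.81% of 32851 promoters of this length), PU.1 (GAGGAAGT, 3.20%), paired GAAA sites as in interferon response elements (GAAANNGAA, 8.56%), the STAT motif GAS (TTCNNNGAA, 8.30%) and the NF-κB motif (4.51%). No overlap between matches occurred. In the *Cd80* window, chr16:38458683-38458982, AP-1 matched once; the start in that window lies downstream of the first base given for *Cd80* above. In the *Cd274* window, chr19:29367188-29367487, the paired GAAA sites matched on the other strand. In the *Havcr2* window, chr11:46454681-46454980, AP-1 and PU.1 each matched once. NF-κB and GAS letters were not found in the 3 windows.
Cd80: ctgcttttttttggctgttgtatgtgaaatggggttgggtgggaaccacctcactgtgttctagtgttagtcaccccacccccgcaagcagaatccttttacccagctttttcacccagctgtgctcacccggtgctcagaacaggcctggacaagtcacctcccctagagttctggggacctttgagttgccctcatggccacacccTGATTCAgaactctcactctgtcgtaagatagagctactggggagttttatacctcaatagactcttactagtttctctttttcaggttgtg
Cd274: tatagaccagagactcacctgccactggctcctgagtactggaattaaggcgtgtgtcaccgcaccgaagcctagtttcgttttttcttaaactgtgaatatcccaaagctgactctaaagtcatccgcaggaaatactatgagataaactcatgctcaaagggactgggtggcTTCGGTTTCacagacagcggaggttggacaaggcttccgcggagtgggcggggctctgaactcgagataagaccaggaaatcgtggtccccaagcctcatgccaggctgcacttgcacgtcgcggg
Havcr2: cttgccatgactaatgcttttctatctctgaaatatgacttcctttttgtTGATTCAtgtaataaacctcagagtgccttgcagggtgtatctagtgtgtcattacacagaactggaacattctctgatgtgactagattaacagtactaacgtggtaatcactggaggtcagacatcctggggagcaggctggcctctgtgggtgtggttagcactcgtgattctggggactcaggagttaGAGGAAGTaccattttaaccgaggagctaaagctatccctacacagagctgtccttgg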

How the data were processed

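The signal values, as deposited by the authors, are read counts divided by DESeq2 size factors, after alignment with STAR 2.7.3a to mm10 and counting with RSEM. The tables also hold a mean, a log2 fold change with its error, a statistic and p-values, which were not used. Whole reads were recovered from the smallest step of each library. The test was limma (trend) on log2(normalized count + 1) over all genes with a mean of at least 10, with Benjamini-Hochberg adjustment, and DESeq2 and edgeR on recovered reads served as alternatives. Comparisons across tables used reads rescaled by median of ratios. R 4.3.3, limma 3.58.1, edgeR 4.0.16 and DESeq2 1.42.0 were used. The 8 genes and the pathway and marker lists were chosen with earlier results of these data known.

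The limits are these. There are 3 libraries per condition, *SOD1G93A* microglia are present only after LPS, and astrocyte counts of several of the 8 genes were low. Whether counting used strand, and which annotation it used, is not given in the sources used here, and the pipeline options that the series places at an outside address were not read. RNA levels do not show surface protein.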

Additional observations from a re-analysis of the deposited data

Results flagged for a closer look

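These genes changed differently after LPS in WT microglia and after the cytokine mix in WT astrocytes, where both stimulus and cell type differ. The values are log2 differences between the responses, microglia minus astrocytes. Of the 8 genes, *Cd40* (6.47), *Cd69* (5.61), *Cd274* (4.43), *Cd86* (3.76) and *Cd80* (2.67) had a more positive change in microglia and *Havcr2* (-3.31), which fell there, a more negative one. Among pathway genes the change was more positive for *Traf1* (5.59), *Irf7* (5.06), *Cd200* (5.04), *Stat2* (2.60), *H2-K1* (2.07), *Tap1* (2.02), *H2-D1* (1.79), *B2m* (1.17), *Nfkb2* (1.09) and *Pvr* (1.05). It was more negative for *H2-DMa* (-2.85), *S1pr1* (-1.42) and *Cmtm4* (-1.17), which fell in microglia, and for *Nfkbia* (-1.64), *Icosl* (-1.31) and *Relb* (-1.15), which changed upward by less there than in astrocytes. *Cd80* (2.67), *Cd86* (3.76), *Tnfsf15* (6.34), *Lag3* (4.53), *Siglece* (4.74) and *Batf* (5.63) were also called. In WT astrocytes alone they were below the mean required for a test. They were tested here because of their level in microglia, so these calls are not counted. The call of *Traf1* was lost without 10 of the 12 libraries in turn and with 0.5 added to each count, and that of *Cmtm4* without 3 of them. The call of *Cd80* was lost without 7 of them, with 0.5 added to each count, with no filter on low values, and with DESeq2 and edgeR.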

How the results depend on the processing

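In WT astrocytes the 1 gene called after the cytokine mix was *Cd83*, tested because of its level after the mix. This number became 2 with no filter on low values and 2 at an adjusted p under 0.05 at any fold. It was 0 of 3 tested when each library had to reach the required value. That filter, which left only 3 of the 8 genes to test in these comparisons, also gave 0 in place of 1 in *SOD1G93A* astrocytes. It gave 3 in place of 7 (*Cd80*, *Cd83* and *Cd86* included) between quiescent microglia and astrocytes, and 2 in place of 6 (*Cd80* and *Cd86* included) for the difference between responses. Leaving out single libraries gave 0 to 1 in WT astrocytes, 7 to 8 between the quiescent cell types and 5 to 6 for the difference between responses.

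Over all genes, an adjusted p under 0.05 at any fold gave 6185 in place of 2263 for LPS in WT microglia, 4722 in place of 1424 and 5328 in place of 1635 for the mix in WT and *SOD1G93A* astrocytes, 5883 in place of 1718 for *SOD1G93A* LPS against quiescent WT microglia, 9699 in place of 5876 between quiescent cell types and 5052 in place of 1871 for the difference between responses. Between genotypes it gave 7 in place of 0 in quiescent and 879 in place of 78 in activated astrocytes, 1 in place of 0 in LPS microglia and 34 in place of 0 for the interaction. For the interaction, DESeq2 gave 22, edgeR 4 and 5 added to each count 3, and leaving out a library at most 6. DESeq2 gave 7 and 2 in place of 0 between genotypes in quiescent astrocytes and LPS microglia. Between quiescent cell types the filter on each library gave 3616.

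Deviations of same-numbered samples from their condition means had r between -0.436 and 0.134 over 39 pairs. With 3 samples per condition this cannot show whether the numbers paired samples. A term for sample numbers left the number called among the 8 genes unchanged in all comparisons.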
